A study of Mus musculus with 12 samples.

Results

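Expression of 6 Hox genes, Hoxa4 and Hoxa10 of the A cluster and Hoxc6, Hoxc8, Hoxc11 and Hoxc13 of the C cluster, was examined in mouse bone marrow mesenchymal stem cells (BMSCs), the adherent stromal cells of marrow. The genes were taken by name, with earlier results of these data known, and they are 6 of the 658 genes in the table analysed here. All 12 libraries came from wild-type (WT) cells in osteogenic medium, that is DMEM with 15% serum to which ascorbic acid (50 µM), β-glycerophosphate (10 mM) and dexamethasone (100 nM) were added. The 6 treated libraries came from cultures that also received the agent spelled α-Asaronel in the labels, read here as α-asarone, a phenylpropanoid of Acorus oil, and the 6 control libraries came from cultures without it. The sources used here do not give its dose or duration, the age or number of mice, or whether animals were pooled. The replicates of a group may thus be technical, and p-values speak only of the spread among these 12 libraries of poly(A)-selected RNA. Of 17 stromal and osteoblast marker genes only Col1a1 was in the table, and it was abundant in every library. Of 16 leukocyte marker genes 5 were in the table, and as a set these were abundant too. Their sum in a library was 926 to 1042 TPM in controls and 1047 to 1198 TPM with α-asarone. TPM is an abundance unit explained below.

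Hox genes encode transcription factors that bind DNA through a homeodomain. They lie in clusters in which the order of the genes follows the order of their expression along the head-to-tail axis of the embryo, with low numbers anterior and high numbers posterior. Adult mesenchymal cells are known to keep part of the Hox pattern of the body site they came from.

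The 6 genes carry related homeoboxes, and reads from a family of like sequences could in principle be shared, so the most alike part was compared first. The stretch that encodes the DNA recognition helix, codons 42 to 56 of the homeobox, is given 5′ to 3′ on the coding strand from GENCODE M21 transcripts (GRCm38), with capitals at bases that are the same in all 6 genes.
Hoxa4: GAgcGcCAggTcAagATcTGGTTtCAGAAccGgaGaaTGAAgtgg
Hoxa10: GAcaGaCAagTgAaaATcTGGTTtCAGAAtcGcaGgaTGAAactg
Hoxc6: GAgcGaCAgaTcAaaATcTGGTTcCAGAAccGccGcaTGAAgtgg
Hoxc8: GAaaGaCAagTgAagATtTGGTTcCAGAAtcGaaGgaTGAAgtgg
Hoxc11: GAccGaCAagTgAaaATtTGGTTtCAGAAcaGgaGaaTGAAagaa
Hoxc13: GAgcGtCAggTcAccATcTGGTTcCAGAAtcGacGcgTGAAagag
In this stretch 25 of 45 bases were the same in all 6 genes, and over the whole homeobox of 180 bases 55 were. Pairwise identity of the homeoboxes ran from 51.1% (Hoxc6 and Hoxc13) to 73.9% (Hoxa4 and Hoxc6) over 15 pairs. No pair of transcripts shared an unbroken run of more than 19 bases. Windows of 50 bases found in a transcript of any other gene numbered 0 in 5 of the 6 transcripts, and 14 of 1819 (0.770%) in Hoxc8. Each estimated count of the 6 genes was whole in each library. Over all genes only 7.45% to 9.57% of counts in a library were not whole, so this does not set the 6 genes apart.

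Hoxa10 was the most abundant of the 6 genes in both groups, followed in controls by Hoxc6, Hoxc13, Hoxc11, Hoxc8 and Hoxa4. Levels are in TPM, an abundance unit that corrects for transcript length and library total, so that genes can be compared. In controls the mean was 37.2 ± 2.30 TPM for Hoxa10 (SD, n = 6) and 12.2 ± 0.659 TPM for Hoxc6 (SD, n = 6), and no library of one gene reached the range of the other. Hoxc13 and Hoxc11, at 5.67 ± 0.571 and 5.19 ± 0.627 TPM (SD, n = 6), had overlapping ranges in controls and did not differ beyond their spread. Hoxc8 at 3.07 ± 0.431 TPM lay below them in every control library, and Hoxa4 at 1.27 ± 0.602 TPM lay lowest. With α-asarone the order was the same, but the range of Hoxc8 met those of Hoxc11 and Hoxa4. Among the C genes measured here the levels did not follow position. Hoxc13 and Hoxc11 at the posterior end were intermediate and Hoxc8, whose start lies 69.5 kb from that of Hoxc13, was low. Hoxc6, at 88.5 kb, was highest. Of the A genes measured here the more posterior, Hoxa10, had the high level and Hoxa4, 43.2 kb away, the low one. With 9 of 39 mouse Hox genes in the table, the rest of each cluster could not be placed.

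**Figure D1:**
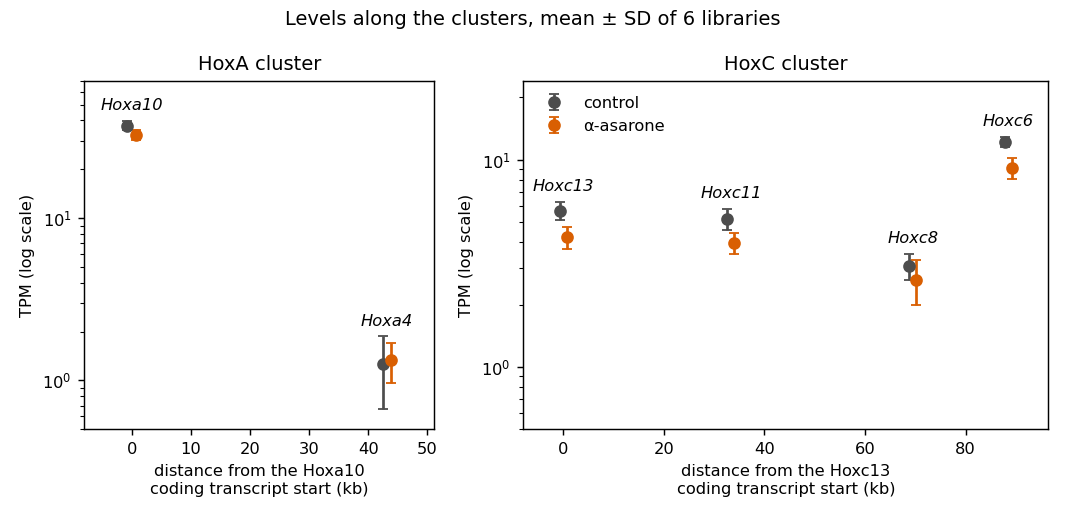
Mean TPM (log scale, bars SD, n = 6) of each gene against the distance in kb of its coding transcript's start from that of Hoxa10 (left) or Hoxc13 (right), with control and α-asarone values set slightly apart. Hoxc6 is the highest of the C cluster genes shown in both groups and Hoxa4 is the lowest of all 6.

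With α-asarone, Hoxc13, Hoxc6, Hoxc11 and Hoxa10 were lower, by 25.8%, 25.0%, 23.4% and 13.8% of their control levels, while Hoxc8 and Hoxa4 did not pass the test. No Hox gene of the 6 was higher. The test was edgeR's quasi-likelihood test on estimated counts, fitted over the 512 genes with at least 1 TPM in at least 6 libraries, with p-values adjusted over all 512 and a threshold of 0.05. Of the 6 genes 4 fell, beside 17.4% of all tested genes (89 lower and 66 higher). The fitted log2 fold change was below 0 in 5 of the 6 genes and in 48.8% of tested genes, and the median was −0.30 against 0.00069 over all tested genes. The 6 genes were chosen with earlier results of these data known, so these contrasts describe them and are not an independent test. Among called genes the median absolute log2 fold change was 0.40 for the 4 Hox genes and 0.20 for all 155. The change needed to pass is larger for genes with few counts, so these medians cannot show that Hox genes changed more. Calr, at a mean of 1054 TPM in controls, passed at −0.089, while Hoxc8, at 3.07 TPM, did not at −0.21. With table totals in place of scaling by TMM factors, 62 of 189 called genes (32.8%) were lower instead of 57.4%, the median of all genes moved to 0.044, and the same 4 of 6 Hox genes passed as lower. In the same libraries Col1a1, the 1 gene of the stromal and osteoblast marker list found in the table, fell by 29.4%. Col6a1, a collagen gene outside that list, rose by 13.1% (edgeR adjusted p = 5.1e-07). Col1a1 alone thus does not stand for stromal genes in general. The sum of the 5 leukocyte markers was 1047 to 1198 TPM with α-asarone against 926 to 1042 TPM in controls. These markers did not move together, as 2 passed as higher, 2 passed as lower and 1 did not pass. The part of cell composition in the Hox differences was not tested. In bulk RNA, fewer cells that express a gene and less RNA per cell cannot be told apart.

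**Figure D2:**
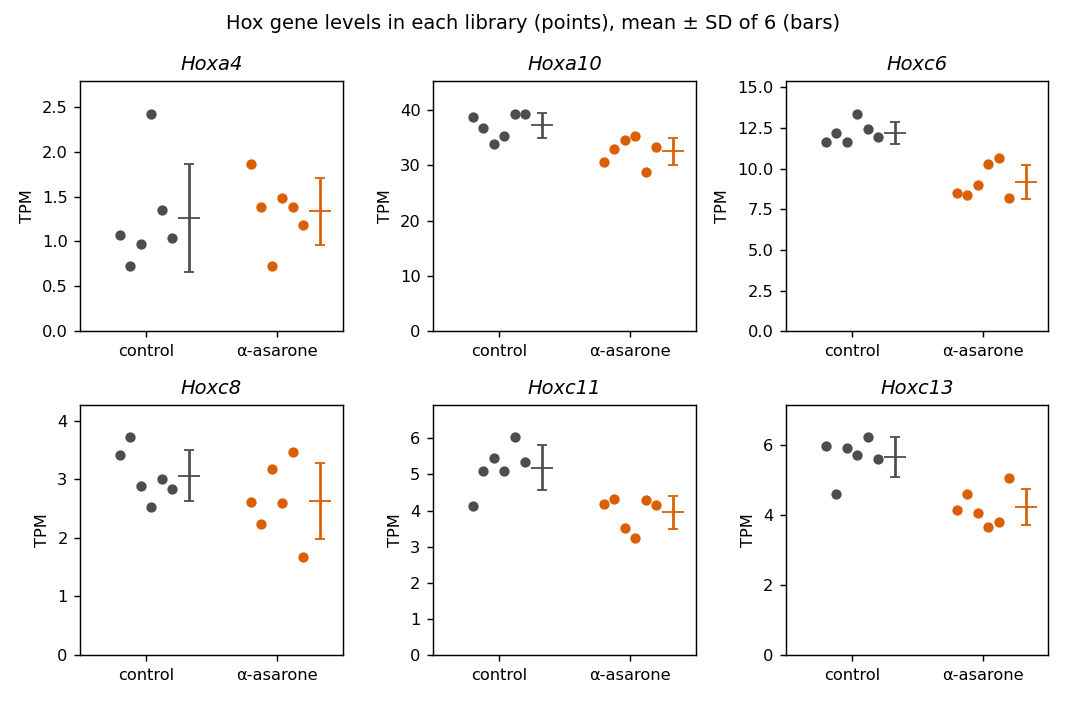
TPM of each Hox gene in each of the 6 control (gray) and 6 α-asarone (orange) libraries, with mean ± SD beside the points. The Hoxc6 values of the groups do not overlap, while those of Hoxa4 and Hoxc8 overlap widely.

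Hoxc6 (ENSMUSG00000001661, GRCm38 chr15:102998257-103011881, plus strand), a gene of trunk-level patterning at the anterior side of the C genes measured here, was the gene whose groups separated fully. Its controls ran from 11.6 to 13.4 TPM with a median of 12.1 TPM. With α-asarone it ran from 8.18 to 10.6 TPM with a median of 8.75 TPM. Every treated library thus lay below every control library, a separation seen in the falling direction in 8.40% of tested genes and in no other of the 6 Hox genes. Its level was 1.33-fold lower, a log2 fold change of −0.41 ± 0.09 SE with an adjusted p of 4.9e-04 in edgeR. The exact 2-sided permutation p on log2(TPM + 1) was 0.00216, the smallest that 6 libraries against 6 can give. The annotated span of Hoxc5 overlaps Hoxc6 and Hoxc8, with no shared exon.

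Hoxc13 (ENSMUSG00000001655, chr15:102921103-102928814, plus strand) lies at the posterior end of the cluster and is best known for its role in hair and nail. In controls it ran from 4.59 to 6.22 TPM with a median of 5.81 TPM. With α-asarone it ran from 3.67 to 5.05 TPM with a median of 4.09 TPM. A single control library, replicate 2, reached into the treated range, and the other controls lay at or above 5.60 TPM. In edgeR the level was 1.35-fold lower, with a log2 fold change of −0.43 ± 0.10 SE and an adjusted p of 0.0018, and the exact permutation p was 0.0065.

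Hoxc11 (ENSMUSG00000001656, chr15:102954427-102957708, plus strand), a posterior gene whose embryonic expression includes the hindlimb, was lower by a like amount. Its controls ran from 4.12 to 6.03 TPM with a median of 5.22 TPM. With α-asarone it ran from 3.24 to 4.31 TPM with a median of 4.17 TPM. Control replicate 1 was low, at 4.12 TPM, and the other 5 controls, at or above 5.09 TPM, lay above every treated library. By edgeR it was 1.31-fold lower (log2 fold change −0.38 ± 0.11 SE, adjusted p = 0.010), and the exact permutation p was 0.011.

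Hoxc8 (ENSMUSG00000001657, chr15:102990607-102994111, plus strand), a gene of thoracic patterning whose product is known as a repressor of the osteopontin gene, did not pass the test. It ran from 2.53 to 3.72 TPM in controls, median 2.95 TPM, and from 1.68 to 3.48 TPM with α-asarone, median 2.61 TPM, and the groups overlapped over most of their range. The estimate was a log2 fold change of −0.21 ± 0.16 SE (edgeR adjusted p = 0.35), and its 95% interval, from −30.7% to 8.58%, includes the falls of its neighbours. Its mean count was 50.0 in controls and 42.5 with α-asarone, where counting alone gives a coefficient of variation of 14.1% and 15.3%, beside 14.1% and 24.4% observed in TPM.

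Hoxa4 (ENSMUSG00000000942, chr6:52189671-52191753, minus strand), an anterior gene of the A cluster, was near the limit of measurement. It ran from 0.726 to 2.42 TPM in controls, median 1.06 TPM, and from 0.730 to 1.87 TPM with α-asarone, median 1.38 TPM, at 8 to 36 counts per library. The groups overlapped, and the estimate of 0.08 ± 0.26 (log2 fold change ± SE, edgeR adjusted p = 0.85) had a 95% interval of −27.1% to 53.4%. Its sign turned without control replicate 2 (−0.016) and without α-asarone replicate 1 (−0.055), and without control replicate 4 the value was 0.38 (edgeR adjusted p = 0.25). Exons of Gm29430 on the opposite strand overlap Hoxa4, and whether the counting used strand is not given in the sources used here.

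**Figure D3:**
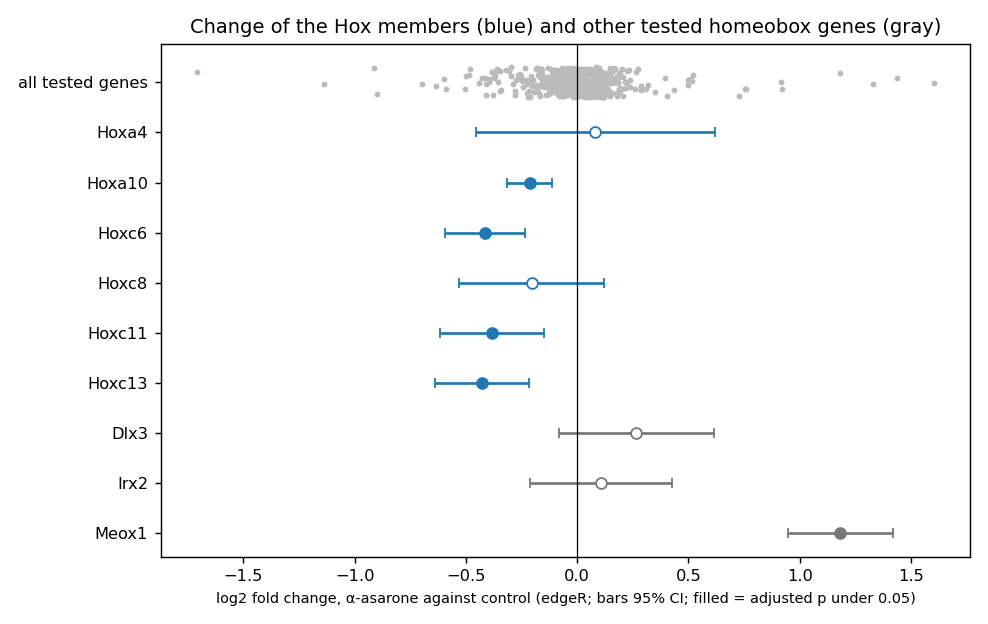
Log2 fold change (edgeR, bars 95% confidence interval) of the 6 Hox genes in blue and of the other tested homeobox genes in gray, below the values of all 512 tested genes. Filled points passed at adjusted p under 0.05: 4 Hox genes lie to the left of 0 and Meox1 to the right.

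Hoxa10 (ENSMUSG00000000938, chr6:52231197-52240854, minus strand), known as an activator of Runx2 and other genes of osteoblasts, had the fitted fold change nearest to 0 of the 4. In controls it ran from 33.9 to 39.3 TPM with a median of 37.8 TPM. With α-asarone it ran from 28.8 to 35.2 TPM with a median of 33.1 TPM. Control replicate 3, at 33.9 TPM, lay below 2 treated libraries, and the other 5 controls, from 35.3 TPM, lay above every treated library. Its level was 1.16-fold lower (log2 fold change −0.21 ± 0.05 SE, edgeR adjusted p = 0.0014), on 471 to 694 counts per library, and the exact permutation p was 0.0087.

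Hoxa10 was also the one gene of the 6 whose ratio of count to TPM, once scaled for each library, varied between libraries by more than 0.0971%. The unscaled ratio varies with the library for every gene. The scale of a library was the median of count over TPM and annotated length in 24 genes with a single annotated transcript. After scaling, the ratio matched the annotated length within 1% in every library in 95.8% of these genes. The same 24 genes set the scale, so their median match was fixed, while the match of each gene was not. The scaled ratio was read as the length the quantification used. For the other 5 Hox genes this length was the same in every library within 0.0971% and was that of the single coding transcript, 1594 bases for Hoxa4, 1581 for Hoxc6, 1868 for Hoxc8, 2021 for Hoxc11 and 2461 for Hoxc13. For Hoxa10 it ran from 1860 to 1978 bases, between its coding transcripts of 1436 and 2565 bases. The long transcript starts inside the gene and has a full reading frame of 1248 coding bases. The short one starts 5915 bases upstream and has 282 coding bases, which include all 180 bases of the homeobox. The 250 bases before each start are given as RefSeq (GRCm38.p6) has them, minus strand, since the Hoxa10 value sums transcripts of both. Capitals mark matches, on either strand, to TTTAT, a core preferred by posterior Hox proteins, and TATAAA, the TATA box.
Upstream start (short transcript), chr6:52240855-52241104: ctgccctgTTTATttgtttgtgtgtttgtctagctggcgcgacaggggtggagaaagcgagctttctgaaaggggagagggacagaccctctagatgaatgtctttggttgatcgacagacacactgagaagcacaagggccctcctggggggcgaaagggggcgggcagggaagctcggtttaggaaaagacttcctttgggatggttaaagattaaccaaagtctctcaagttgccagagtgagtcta
Internal start (long transcript), chr6:52234940-52235189: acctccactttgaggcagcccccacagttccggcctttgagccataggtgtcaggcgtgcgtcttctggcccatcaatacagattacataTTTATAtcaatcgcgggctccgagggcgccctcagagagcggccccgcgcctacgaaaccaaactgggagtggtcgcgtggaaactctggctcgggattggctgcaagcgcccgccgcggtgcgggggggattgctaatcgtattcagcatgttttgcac
The upstream window held 1 match to TTTAT, 242 bases before the start, and the internal window held TTTAT 160 bases before the start, overlapping a TATAAA match on the other strand. Of 32851 promoter windows of this length, 37.3% hold TTTAT and 12.4% hold TATAAA on either strand. TAATTA and the Pbx and Hox composite TGATNNAT, present in 4.84% and 7.68% of windows, had no match in these letters. A match describes letters in the window, not binding. The internal window had 20 CpG dinucleotides and the upstream window 7, against a median of 6 over all windows. Of the 6 genes, Hoxa10 was the one with a window in the RefSeq table used here.

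If only these 2 coding transcripts entered the quantification, the length gives their shares. Hoxa10 also has annotated non-coding transcripts of 1710 and 1045 bases, and if these entered, the length would not fix the shares. Of 95 genes with 1 coding and other non-coding transcripts, 80.0% had the coding length within 1% in every library, beside 95.8% of single-transcript genes. A gene whose non-coding transcripts entered but were little expressed would match as well. The match therefore cannot show that only coding transcripts entered, and the shares rest on that assumption. If it holds, the full-length transcript ran from 14.3 to 17.8 TPM in controls and from 11.7 to 15.4 TPM with α-asarone. Its mean went from 16.3 ± 1.37 to 13.5 ± 1.37 TPM (SD, n = 6), and the exact 2-sided permutation p was 0.011. The short transcript went from 20.9 ± 1.98 to 19.1 ± 1.63 TPM (SD, n = 6, exact permutation p = 0.12). The full-length share of Hoxa10 TPM was 43.9 ± 3.19% in controls and 41.3 ± 2.55% with α-asarone (SD, n = 6, exact permutation p = 0.15), so an unequal change of the transcripts was not shown. These 3 p-values are unadjusted, and without control replicate 5 the difference in share was −3.61 percentage points (exact permutation p = 0.037) and that of the short transcript −1.15 TPM, against −1.78 TPM with all libraries. Without α-asarone replicate 3 the short transcript differed by −2.28 TPM (exact permutation p = 0.0498).

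**Figure D4:**
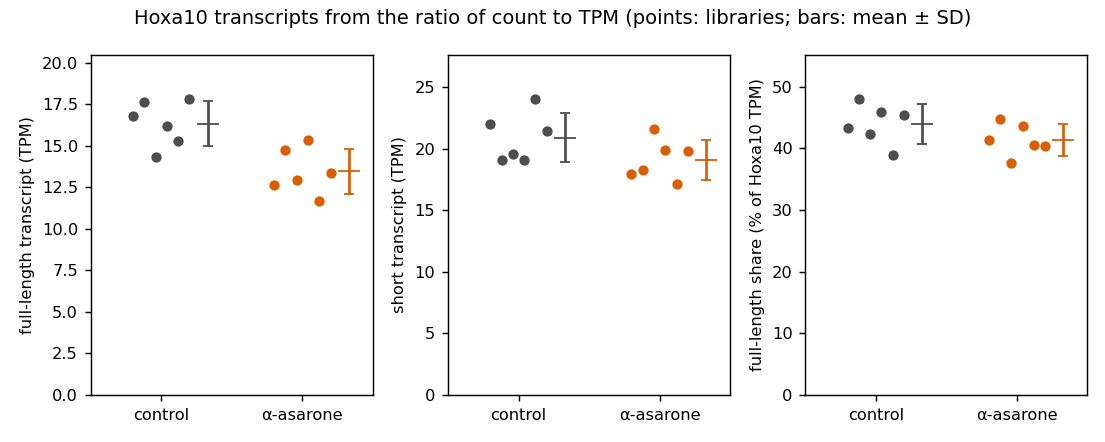
TPM of the full-length and short Hoxa10 transcripts and the full-length share in percent, read from the ratio of estimated count to TPM, in each library of both groups with mean ± SD. The full-length transcript sits lower with α-asarone, while the short transcript and the share overlap over most of their range.

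Whether the genes changed by different amounts was tested by the difference of log2(TPM + 1) of each pair within a library. The pseudocount of 1 TPM compresses the changes of the low genes, so values with 0.1 TPM are given where they differ. Over 15 pairs, none passed in an exact 2-sided permutation test adjusted over all tested genes, and 2 had an unadjusted p under 0.05, Hoxa4 against Hoxc6 (0.45, p = 0.028, exact permutation test) and Hoxa4 against Hoxc13 (0.42, p = 0.039, exact permutation test). With a pseudocount of 0.1 TPM both had p = 0.080 in the exact permutation test. Among the called C cluster genes the changes were close to 0, at −0.06 for Hoxc6 to Hoxc11 (p = 0.60, exact permutation test), −0.03 for Hoxc6 to Hoxc13 (p = 0.84, exact permutation test) and 0.03 for Hoxc11 to Hoxc13 (p = 0.74, exact permutation test). With 0.1 TPM they were −0.03, 0.0044 and 0.04. The ratio of Hoxa10 to Hoxc6 was higher with α-asarone by 0.19 (adjusted p = 0.12, exact permutation test), and without α-asarone replicate 5 by 0.27 (adjusted p = 0.024, exact permutation test). A smaller fall of Hoxa10 than of Hoxc6 therefore rested on leaving out that library.

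The tested genes most like each called Hox gene over the 12 libraries were found by the root mean square difference of log2(TPM + 1) profiles after each gene's mean was subtracted. The nearest to Hoxc6 were Fkbp10, a collagen chaperone gene, at 0.11, Ltbp1, a latent TGF-β binding protein gene, at 0.12, and S100a4, a calcium-binding protein gene of fibroblasts, at 0.12. Hoxc11 lay nearest to the collagen receptor gene Ddr1 at 0.092, the costimulatory ligand gene Icosl at 0.10 and the TEAD family gene Tead3 at 0.11. Hoxc13 lay nearest to Krit1, an endothelial junction regulator gene, at 0.12, Mid2 at 0.12 and Ddr1 at 0.14. Hoxa10 lay nearest to Krit1 at 0.077, the actin regulator gene Flii at 0.082 and Mcm3ap at 0.083. All 10 of these neighbours passed as lower in edgeR, and the likeness includes the difference between the groups. For comparison, the profile of Hoxc6 itself had a root mean square of 0.22 and that of Hoxa10 0.13.

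No other tested homeobox gene was lower with α-asarone. The deposited annotation gives 17 genes of the homeobox family, of which 9 were tested. Besides the 6 Hox genes these were Meox1, a gene of somite development, which rose from 3.31 ± 0.550 to 7.59 ± 0.914 TPM (SD, n = 6, edgeR log2 fold change 1.18 ± 0.12 SE, adjusted p = 1.3e-09), Dlx3, an osteoblast regulator (0.27 ± 0.17 SE, edgeR adjusted p = 0.25), and Irx2 (0.11 ± 0.16 SE, edgeR adjusted p = 0.63). Of the genes that the deposited annotation places in any transcription factor family, leaving out the 6 Hox genes, 9 of 47 tested genes were lower (19.1%) and 10 higher (21.3%). Of 39 Hox genes in the mouse 9 were in the table, and the remaining 3 lay below the filter. Hoxd12 was listed at 0 in every library and Hoxb6 reached at most 0.351 TPM. Hoxd13, the posterior end of the D cluster, had 37 counts in all with α-asarone and 13 in controls, at most 0.464 TPM, and without the filter edgeR gave a log2 fold change of 1.48 ± 0.55 SE with an adjusted p of 0.043. Lhx2, a LIM homeobox gene also under the filter, went from 0.677 ± 0.290 to 0.277 ± 0.243 TPM (SD, n = 6), and edgeR without the filter gave −1.12 ± 0.43 (log2 fold change ± SE, adjusted p = 0.047).

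Few known partners and regulators of Hox genes were in the table. None of 9 TALE cofactor genes, whose products bind DNA with Hox proteins, was analysed here. Of 18 caudal and retinoid genes 1 was tested, Rarg, which encodes a retinoic acid receptor, and it fell. Controls held 48.2 to 52.1 TPM of Rarg, median 50.4 TPM, and treated libraries 41.7 to 44.9 TPM, median 42.9 TPM, without overlap (edgeR log2 fold change −0.25 ± 0.03 SE, adjusted p = 4.2e-07). Of 44 Polycomb and trithorax genes, which silence or maintain Hox clusters, 2 were tested and neither passed. Kmt2a, the methyltransferase gene that maintains Hox expression, was at 21.9 ± 1.71 TPM with α-asarone against 20.9 ± 1.17 TPM in controls (SD, n = 6, edgeR adjusted p = 0.44). Scmh1, a Polycomb gene, was at 18.7 ± 1.60 against 19.5 ± 1.60 TPM (SD, n = 6, edgeR adjusted p = 0.39).

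Markers of several cell types moved between the groups together with the Hox genes. Of 17 stromal and osteoblast markers 1 was in the table, Col1a1, at 1208 to 1428 TPM with α-asarone against 1720 to 2103 TPM without. Its log2 fold change was −0.50 ± 0.04 (SE) in edgeR, with an adjusted p of 1.8e-11. Since Col1a1 fell, a gene with no change of its own rises relative to it, and the median log2 fold change of all tested genes was 0.00069. Most tested genes passed relative to Col1a1, as adjustment over them moved the exact permutation p of Hoxc8 only from 0.035 to 0.037. A pass thus separates a gene from Col1a1 and does not set Hox genes apart. Relative to Col1a1 within each library, Hoxa10 was higher with α-asarone by 0.32 on the log2(TPM + 1) scale (adjusted p = 0.0027, exact permutation test). It passed in each of 14 alternatives. Hoxa4, at 0.57 (adjusted p = 0.026, exact permutation test), and Hoxc8, at 0.33 (adjusted p = 0.037, exact permutation test), passed with a pseudocount of 1 TPM. With 0.1 TPM in its place neither did, at 0.63 for Hoxa4 (adjusted p = 0.065, exact permutation test) and 0.27 for Hoxc8 (adjusted p = 0.16, exact permutation test). Hoxc8 also did not pass in 9 of 12 tests that left out 1 library. Hoxc6, Hoxc11 and Hoxc13 did not pass relative to Col1a1, at 0.12, 0.18 and 0.15 with a pseudocount of 1 TPM and 0.09, 0.12 and 0.09 with 0.1 TPM. Of these, Hoxc6 passed at 0.17 without control replicate 4 (adjusted p = 0.042, exact permutation test) and Hoxc11 at 0.25 without α-asarone replicate 4 (adjusted p = 0.017, exact permutation test). Without control replicate 2 the value of Hoxc13 was 0.06, and without α-asarone replicate 5 that of Hoxc6 was 0.08. Of the 5 leukocyte markers Spi1 and Cfp passed as higher, Itgb2 and Cd52 as lower, and Clec10a did not pass. The osteoclast marker Acp5 (1 of 7) was at 25.1 to 38.4 against 57.9 to 78.4 TPM, and the contractile marker Cnn1 (1 of 5) at 6.82 to 9.97 against 21.8 to 30.3 TPM. The sum of 4 adipocyte markers of 7 was 393 to 507 against 349 to 406 TPM, and that of 2 endothelial markers of 6 was at most 2.11 TPM. None of 8 erythroid and megakaryocyte markers was analysed here.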

How the data were processed

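The authors deposited 1 table of TPM and estimated counts, 1 column of each for a library, per the file headers. The submitters' processing notes name GRCm38 and mm10; the sources used here give no aligner, quantifier or strandedness. The 658 genes analysed had totals of 843595 to 1224256 estimated counts, and 5.36% to 5.67% of all TPM, so totals are not library depths. Libraries of a group differed beyond sampling noise (chi-square per degree of freedom 2.24 to 11.2 over 30 pairs).

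Estimated counts were rounded and fitted with edgeR 4.0.16 (R 4.3.3; TMM factors 0.976 to 1.03, no covariate, Benjamini-Hochberg adjustment). Ratios within a library used log2(TPM + 1) with exact 2-sided permutation tests, adjusted over all tested genes for the reference gene, with the larger value given for a pair. Alternatives used limma 3.58.1 and DESeq2 1.42.0, other filters, scalings and pseudocounts, a block for replicate number, and fits that left out 1 library each. The edgeR and permutation tests were tested on simulated counts. There edgeR recovered 68% of genes changed 1.1-fold and 86% of those changed 1.25-fold, with 1.67% of its calls false. The exact permutation test recovered 0% and 52%. It was run there on log2(count + 1) without library scaling, so these shares do not give its power on log2(TPM + 1). The 6 genes and all lists were chosen with earlier results of these data known. Named are the 6 genes, list genes that passed (or up to 2 of the highest TPM), and the 3 nearest profiles of each called Hox gene. Meox1 and other homeobox genes of the deposited annotation, Hoxd13 and Hoxb6, the Hoxa10 transcripts and ratios to Col1a1 with their alternatives were chosen after values were seen. Coordinates are from GENCODE M21 on GRCm38.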

Additional observations from a re-analysis of the deposited data

Results flagged for a closer look

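Hoxa4 in control replicate 4 was at 2.42 TPM (36 counts), while the other controls lay between 0.726 and 1.35 TPM. The gap exceeded Dixon's critical value for 6 values. Of 12 sets of values, each 1 gene in 1 group, this was the 1 so set apart, where chance alone gives about 0.6. Without this library the log2 fold change of Hoxa4 was 0.38 (edgeR adjusted p = 0.25).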

How the results depend on the processing

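Over 10 other filters, scalings and tools and 12 fits with each library left out, the count of Hox genes lower with α-asarone was 4 each time. The log2 fold change ran from −0.47 to −0.37 for Hoxc6, −0.48 to −0.35 for Hoxc13, −0.44 to −0.32 for Hoxc11 and −0.24 to −0.17 for Hoxa10, with adjusted p values up to 0.015, 0.035, 0.049 and 0.042, each highest in the exact permutation test. Hoxc8 did not pass in any of them (−0.30 to −0.11), nor did Hoxa4. With each library left out Hoxa4 ran from −0.055 to 0.38, reversing to −0.016 without control replicate 2 and to −0.055 without α-asarone replicate 1; the cause was not tested beyond its counts of 8 to 36. Genes called in all numbered 114 to 189 against 155. Pairs of Hox genes whose ratio changed numbered 0, and 0 to 1 with each library left out. Same-numbered libraries had correlations of −0.0031 to 0.13 and 2 of 6 matched best by number, so the numbers were not taken as pairs. With the replicate block 168 genes were called and Hoxa10 changed by −0.21 and Hoxc11 by −0.38. Mean counts of 18.2 for Hoxa4 and 50.0 for Hoxc8 in controls limit what could be seen for these genes.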
